A study of Homo sapiens with 6 samples.

Results

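The protein-coding genes of human chromosome 19 whose symbol is ZNF followed by a number were examined in MOLM-13 cells, a human acute myeloid leukaemia line. The rule that selected them used symbol and chromosome, through Entrez identifiers, and no measured value, and they numbered 234 of the 25420 genes listed. MOLM-13 cells were exposed to 10 µM C646, an inhibitor of the acetyltransferases CBP and p300, or to the solvent DMSO, and all cells received 100 µM 4-thiouridine (4sU) for the last hour of the 2 h treatment. Each group comprised 3 replicates of this one line, and no group without 4sU was analysed here. SLAM-seq alkylates 4sU, which is then read as C, so that reads with T>C conversions mark RNA made during labelling. The 3′-end libraries place reads in 3′ untranslated regions (UTRs).

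Most zinc finger genes of chromosome 19 lie in tandem clusters that grew by repeated duplication. Many encode a KRAB domain, which recruits the corepressor TRIM28 and, through it, the histone H3 lysine 9 methyltransferase SETDB1, heterochromatin proteins and the NuRD complex, in large part at transposable elements. Other members of the clusters carry a SCAN domain or zinc fingers alone. CBP and p300 acetylate histones at enhancers and promoters and act as transcriptional coactivators.

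Between 7252597 and 10225448 reads fell on 3′ UTRs per library, of which 635616 to 833410 carried a T>C conversion in DMSO and 477824 to 686139 in C646. The 10 myeloid leukaemia markers examined, among them SPI1, CD33 and FLT3, were all above 10 CPM (read counts scaled to library size) on average. Marker genes of T cells, B cells, erythroid, epithelial and fibroblast cells summed to at most 6.75 CPM per list in any library. The erythroid genes were at 0 throughout. The fibroblast list was at 0.808 to 2.32 CPM in DMSO and 5.69 to 6.75 CPM in C646, with COL1A1 as its single detected gene (COL1A2 and DCN at 0), and its part in the results was not tested. The labels do not say that replicates were separate cultures, so p-values measure the spread between these libraries, which may be technical. Since RNA was taken from bulk cultures, fewer cells of a kind and less RNA per cell cannot be told apart.

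The 234 chromosome 19 ZNF genes were listed with 309 3′ UTR entries, and 191 of them had at least 1 read. The other 43 genes had none, 19 of them in the cluster of 33 genes at chr19:19680301-24107352 (GRCh38). For 4 genes of that cluster (ZNF85, ZNF100, ZNF43 and ZNF676) the tables also list a copy on an alternate contig, and these 4 averaged at most 0.5 reads per library. How reads shared with such copies were counted was not tested, and these 4 genes were named after their values had been seen. Among reads on the chromosome 19 ZNF genes, 0.440% were multimapped, against 4.70% over all genes. The filter on low counts left 103 of the 234 genes for tests of T>C reads and 137 for tests of all reads. The tested genes averaged 8.17 to 217 T>C reads in a library (median 27), which limited the precision for single genes.

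Reads with a T>C conversion formed a larger share of the reads of the chromosome 19 ZNF genes in DMSO than of all reads. Without libraries free of 4sU, the T>C reads that come from sequencing errors or variants were not measured, and reads with a single conversion are included. Of their pooled reads, 37.6%, 35.9% and 34.6% carried a T>C conversion in DMSO replicates 1, 2 and 3, and 24.6%, 24.4% and 24.5% did so in C646 replicates 1, 2 and 3. The groups did not overlap, and the mean share was 36.01% ± 1.52 in DMSO and 24.5% ± 0.0893 in C646 (SD, n = 3 each), a difference of -11.5 percentage points. Over all genes the share went from 8.79% ± 0.0637 to 6.48% ± 0.203. The 232 ZNF-number genes of other chromosomes stood at 26.4% ± 0.647 in DMSO and 14.7% ± 0.768 in C646. For the 1124 other protein-coding genes of chromosome 19 the share was 5.97% ± 0.151 in DMSO and 5.69% ± 0.160 in C646, and the groups overlapped. Gene by gene, the share was lower in C646 for 416 of the 465 of them with at least 100 reads. Which genes set the pooled value was not tested. No test was run on these pooled values.

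In CPM scaled by the reads on all 3′ UTRs, T>C reads of the chromosome 19 ZNF genes summed to 645, 657 and 598 in DMSO and to 418, 408 and 414 in C646. Their reads without a conversion summed to 1071, 1175 and 1133 CPM in DMSO and to 1283, 1264 and 1273 CPM in C646. The C646 libraries thus lay below all DMSO libraries in T>C reads and above all of them in reads without a conversion. The same held for the ZNF-number genes of other chromosomes, with 2945 CPM in DMSO and 3371 CPM in C646 on average for reads without a conversion, and for all genes, where these reads differed by 0.052 and T>C reads by -0.42 on the log2 scale, against 0.18 and -0.62 for the chromosome 19 ZNF genes. All reads together came to 1760 ± 63.3 CPM in DMSO and 1686 ± 14.6 CPM in C646 (SD, n = 3 each). For the chromosome 19 ZNF genes, conversions per T>C read were at 2.18 ± 0.0963 in DMSO and 2.13 ± 0.0246 in C646, and overlapped. Over all genes they went from 2.051 ± 0.0576 in DMSO to 1.895 ± 0.01997 in C646, with every C646 library below every DMSO library. They were also lower in every C646 library for the ZNF-number genes of other chromosomes, at 2.24 ± 0.0969 and 2.04 ± 0.0302. Those of the other protein-coding genes of chromosome 19 overlapped. What these differences add to the T>C comparisons was not tested.

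Gene by gene, shares could be read for 43 chromosome 19 ZNF genes whose mean was 100 reads or more. Their median T>C share in DMSO was 31.6%, with a range from 6.63% to 76.2%. The median was 29.6% for 80 ZNF-number genes of other chromosomes, 7.68% for 465 other protein-coding genes of chromosome 19 and 11.02% for all 7468 genes with that many reads. In C646 these medians were 23.8% for the 43 genes, 16.4% for the ZNF-number genes of other chromosomes, 3.48% for the other genes of chromosome 19 and 5.96% for all genes. In DMSO, 36 of the 43 genes (83.7%) were among the top 25% of these 7468 genes, above 18.3%, and 27 (62.8%) among the top 10%, above 29.5%. Of the 80 ZNF-number genes of other chromosomes, 58 (72.5%) were among the top 25% and 40 (50%) among the top 10%. In C646 the pooled share was lower for 41 of the 43 genes, or 95.3%, against 92.3% of all 7468 genes. The libraries of the groups did not overlap for 25 of the 43, or 58.1%, against 64.4% of all genes. In 0 of the 43 genes, against 2.10% of all, every C646 library was above every DMSO library. Lower shares in C646 were thus as general over all genes, and these counts do not set the chromosome 19 ZNF genes apart. ZNF260 and ZNF274 were the exceptions, at 26.9% in DMSO and 27.8% in C646 for ZNF260 and at 29.8% and 36.7% for ZNF274. ZNF274, which recruits SETDB1 to the 3′ ends of other zinc finger genes, and ZNF260 were named after their values had been seen.

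The highest DMSO shares belonged to ZNF627, ZNF574, ZNF805 and ZNF557. ZNF627, a KRAB zinc finger gene at chr19:11617890-11619159 (coordinates here and below are of the 3′ UTR that took most of its reads), had shares of 83.4%, 65.8% and 79.4% in DMSO and of 56.7%, 54.5% and 57.1% in C646. Its T>C reads nevertheless overlapped between the groups, at 26.6, 25.9 and 24.4 CPM in DMSO and 24.1, 26.96 and 27.97 CPM in C646. ZNF627 was called in the test of T>C odds, the ratio of T>C reads to other reads within a library, at -1.36 ± 0.33 on the log2 scale (SE; edgeR quasi-likelihood test, adjusted p = 0.00142). ZNF805, also of the KRAB type, had shares of 67.5%, 69.0% and 65.2% in DMSO and of 44.2%, 32.9% and 42.6% in C646, with log2 T>C odds of -1.62 ± 0.44 (SE, adjusted p = 0.00325, edgeR).

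At the other end, ZNF580, ZNF534, ZNF444 and ZNF524 had the lowest DMSO shares among the 43 genes. ZNF580 carried T>C conversions in 5.73%, 7.87% and 6.45% of its reads in DMSO and in 4.90%, 0.578% and 2.36% in C646. ZNF444, a gene with a SCAN domain, stood at 10.6%, 8.61% and 11.7% in DMSO and at 2.27%, 2.91% and 3.12% in C646. Neither ZNF534 nor ZNF524 had enough T>C reads for the test, with 5 to 13 reads per library for ZNF534 and 0 to 21 for ZNF524.

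In the test of T>C reads, 28 of the 103 chromosome 19 ZNF genes tested were lower in C646 and 1 was higher (edgeR quasi-likelihood test, adjusted p at most 0.01 over all genes and a log2 fold change of at least 1). The 28 are 27.2% of the genes tested, while over all 7722 genes tested 33.0% were called lower and 2.97% higher. Their median log2 fold change was -0.64, against -0.83 for all genes, -0.92 for 123 ZNF-number genes of other chromosomes, of which 48 were lower, and -1.32 for 440 other protein-coding genes of chromosome 19, of which 228 were lower. Relative to the median of all genes the chromosome 19 ZNF genes thus lay 0.18 higher, with 59 of them above it and 44 below. T>C CPM of 44 of the 103 genes was lower in every C646 library than in any DMSO library, that of 6 was higher in every C646 library, and 53 overlapped. The 44 and the 6 are 42.7% and 5.83% of the genes tested, against 55.8% and 6.46% of all 7722 genes. None of the 28 genes called lower overlapped between groups.

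These directions were set against the reads on all 3′ UTRs. Scaled to T>C reads instead (TMM on T>C reads), 7 chromosome 19 ZNF genes were called lower and 11 higher, or 6.80% and 10.7% of those tested, against 7.80% and 9.14% of all genes. Their median was 0.20, and the median of all genes moved from -0.83 to 0.0073. Among the genes named here, ZNF296, ZNF787, ZNF444, ZNF77, ZNF581 and ZNF574 were still called lower and ZNF44 higher under that scaling. The calls of ZNF556, ZNF584, ZNF580, ZNF526, ZNF324, ZNF480, ZNF557, ZNF430 and ZNF791 were lost. ZNF146, ZNF20, ZNF227, ZNF428, ZNF473, ZNF763 and ZNF772 were called higher there but not against the reads on all 3′ UTRs.

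The largest falls in T>C reads, among genes that averaged 20 or more of them, were those of ZNF296, ZNF787, ZNF77, ZNF584 and ZNF581. T>C reads of ZNF296, whose mouse counterpart is a gene of pluripotent cells, were at 10.5, 12.1 and 9.16 CPM in DMSO and at 1.19, 0.613 and 0.0992 CPM in C646. ZNF296 (chr19:45071500-45071600) fell by 4.12 on the log2 scale (SE 0.44, adjusted p = 7.46e-09, edgeR). Its all reads fell as well, from 17.7, 21.5 and 18.4 CPM to 5.42, 3.799 and 1.79 CPM, and its T>C odds by 2.66 (SE 0.57, adjusted p = 0.000453, edgeR). In C646 replicate 3 only 1 T>C read of ZNF296 was counted, and without C646 replicate 1 its T>C log2 fold change was -4.93.

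ZNF787 (chr19:56087363-56088022) had 13.2, 9.98 and 7.54 T>C CPM in DMSO and 2.12, 0.490 and 0.992 in C646, a log2 fold change of -3.11 ± 0.39 (SE, adjusted p = 1.47e-07, edgeR). Its all reads were not called, at -0.53 on the log2 scale, and overlapped between the groups. Its T>C share was 16.7% to 19.8% in DMSO and 1.37% to 4.55% in C646. Without C646 replicate 1 the T>C value of ZNF787 was -3.72. ZNF77, a KRAB gene at chr19:2933218-2933488, had 5.27, 6.24 and 3.77 T>C CPM in DMSO and 1.06, 0.490 and 0.595 in C646, and fell by 2.83 (SE 0.48, adjusted p = 1.66e-05, edgeR).

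ZNF581 and ZNF580 lie side by side at chr19:55643028-55645623, and T>C reads of both genes fell. For ZNF581 they were at 13.0, 13.9 and 10.2 CPM in DMSO and 1.72, 2.08 and 1.98 CPM in C646, a log2 fold change of -2.67 ± 0.30 (SE, adjusted p = 2.42e-08, edgeR). ZNF580 was at 4.11, 6.10 and 4.04 CPM in DMSO and 2.65, 0.245 and 0.595 CPM in C646, at -2.06 ± 0.53 (SE, adjusted p = 0.00175, edgeR). C646 replicate 1 was the high library of its group for ZNF580. Without C646 replicate 1 the value for ZNF580 was -3.39, and the call was lost without DMSO replicate 2, at -1.85, and without C646 replicate 2, at -1.60. ZNF584, a KRAB gene at chr19:58416859-58418325, was at 7.06, 4.85 and 2.15 T>C CPM in DMSO and at 0.926, 1.10 and 0.198 in C646, a log2 fold change of -2.70 ± 0.55 (SE, adjusted p = 0.000162, edgeR). Scaled to T>C reads, ZNF584 was at -1.85 and ZNF580 at -1.22, neither of them called.

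The 10 chromosome 19 ZNF genes richest in T>C reads in DMSO held 30.3% of the T>C reads of all 234. In T>C reads 6 of the 10 were called lower (ZNF574, ZNF557, ZNF430, ZNF480, ZNF791 and ZNF581), against 33.0% of all genes, and 4 were not called (ZNF627, ZNF146, ZNF766 and ZNF101). The 10 were picked by DMSO counts, which also enter the fold change and favour falls and deep coverage. Their count of lower calls is thus not comparable with the share of all genes. ZNF574 (chr19:42081298-42081567), a zinc finger gene without a KRAB domain, was at 28.5, 27.4 and 32.2 T>C CPM in DMSO and at 10.6, 6.005 and 2.68 in C646. Its log2 fold change of T>C reads was -2.22 ± 0.28 (SE, adjusted p = 1.43e-07, edgeR), and its T>C odds were lower by the same rule. ZNF480, a KRAB gene at chr19:52322859-52325927, was at 16.5, 20.5 and 13.1 T>C CPM in DMSO and at 5.03, 5.64 and 4.56 CPM in C646, at -1.72 ± 0.25 (SE, adjusted p = 1.44e-06, edgeR), and at -0.88 and not called when scaled to T>C reads.

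Near the threshold of 1 stood ZNF557, ZNF430 and ZNF791, all of the KRAB type. ZNF557 had 33.2, 24.4 and 28.4 T>C CPM in DMSO and 16.5, 12.3 and 13.8 in C646, at -1.02 ± 0.20 on the log2 scale (SE, adjusted p = 8.88e-05, edgeR). ZNF430 was at -1.01 ± 0.21 and ZNF791 at -1.05 ± 0.24 (SE), and in all 3 genes the groups did not overlap. The call of ZNF557 was lost without DMSO replicate 1 (-0.90), without C646 replicate 2 (-0.92) and without C646 replicate 3 (-0.999). That of ZNF430 was lost without DMSO replicate 2 (-0.92) or C646 replicate 2 (-0.84), and that of ZNF791 without DMSO replicate 2 or C646 replicate 1 (-0.95 each). ZNF766 was not called, at -0.60 ± 0.22, nor was ZNF101, at -0.34 ± 0.23 (SE). Scaled to T>C reads, ZNF557 and ZNF430 were at -0.17 each and ZNF791 at -0.22, none of them called, while ZNF766 was at 0.24 and ZNF101 at 0.50.

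**Figure D1:**
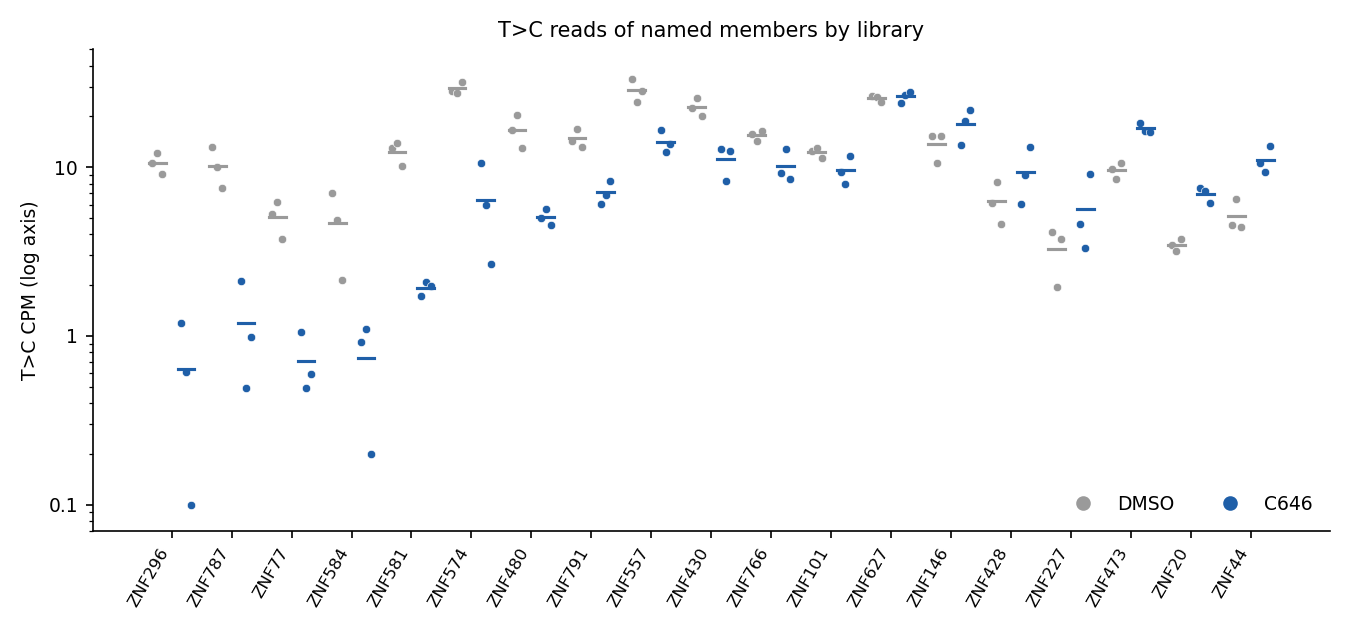
T>C CPM on a log axis in each library for the 10 genes richest in T>C reads in DMSO and for the 5 largest falls and 5 largest rises among genes that averaged 20 or more T>C reads, ordered by log2 fold change. Grey points are DMSO and blue points C646 libraries, and short lines are group means (n = 3); from ZNF296 to ZNF766 every C646 library lies below every DMSO library, and for ZNF473, ZNF20 and ZNF44 every C646 library lies above.

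ZNF44, a KRAB gene first cloned as KOX7, was the single chromosome 19 ZNF gene called higher in T>C reads. They were at 4.53, 6.52 and 4.44 CPM in DMSO and 10.6, 9.31 and 13.3 CPM in C646. ZNF44 (chr19:12271810-12272406) rose by 1.11 on the log2 scale (SE 0.27, adjusted p = 0.00102, edgeR). All reads of ZNF44 rose from 12.3, 17.3 and 14.1 CPM to 38.5, 28.8 and 35.7 CPM, a log2 fold change of 1.24 ± 0.19 (SE, adjusted p = 0.000434, edgeR), and its T>C share overlapped between the groups, at 31.4% to 37.6% in DMSO and 27.5% to 37.2% in C646. The T>C call of ZNF44 was lost without DMSO replicate 1 (1.02, adjusted p = 0.0108, edgeR) and without C646 replicate 3 (0.95).

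The next largest rises among genes that averaged 20 or more T>C reads did not pass the test when set against the reads on all 3′ UTRs. ZNF20, a KRAB gene of the same cluster, was at 3.48, 3.19 and 3.77 T>C CPM in DMSO and 7.54, 7.23 and 6.15 in C646, and its log2 fold change of 0.996 ± 0.31 (SE, adjusted p = 0.00801, edgeR) was just short of the fold limit. The 3′ UTR of ZNF20 overlaps that of another gene, so its reads cannot be assigned with certainty. ZNF473, a component of the U7 particle that processes histone mRNA 3′ ends, had 9.80, 8.46 and 10.6 T>C CPM in DMSO and 18.4, 16.4 and 16.3 in C646, at 0.82 ± 0.22 (SE, adjusted p = 0.00212, edgeR). ZNF227 was at 0.80 ± 0.38 and ZNF428 at 0.59 ± 0.29 (SE), and both overlapped between the groups. Scaled to T>C reads all 4 were called higher, at 1.84 for ZNF20, 1.66 for ZNF473, 1.62 for ZNF227 and 1.42 for ZNF428. The other genes in which every C646 library was higher in T>C reads were ZNF763 (1.26), ZNF772 (1.49) and ZNF274 (0.49 on the log2 scale), none of them called. With T>C scaling ZNF763 (2.09) and ZNF772 (2.33) were called higher.

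In all reads, 10 of the 137 chromosome 19 ZNF genes tested were lower in C646, or 7.30%, and 8 were higher, or 5.84%. Over all 10851 genes tested 1.88% were called lower and 5.89% higher. The median log2 fold change was -0.11 for the chromosome 19 ZNF genes and -0.0030 for all genes. Each of the 10 genes called lower in all reads was called lower in T>C reads too. T>C reads are a part of all reads, so these calls are not independent. Scaled to all filtered reads of a library, the 137 genes had a median of 0.096 and all genes one of 0.20, and 13 of the 137 genes were called higher. The share of all genes called higher under that scaling was not counted. Without DMSO replicate 1, DMSO replicate 2 or C646 replicate 3, the number of chromosome 19 ZNF genes called lower was 6 each time. Calls over all genes were not counted in those fits, so a drop shared by all genes cannot be told apart.

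ZNF556 and ZNF296 had the largest falls in all reads. ZNF556, a KRAB gene at chr19:2878330-2878505, went from 6.96, 9.01 and 8.89 CPM in DMSO to 1.98, 1.84 and 0.694 CPM in C646 and fell by 2.48 on the log2 scale (SE 0.39, adjusted p = 0.000477, edgeR). Its T>C reads fell by 2.76 (SE 0.64, adjusted p = 0.000604, edgeR), with counts of 28, 23 and 20 in DMSO and 0, 6 and 5 in C646, and by 3.35 without C646 replicate 2. Scaled to T>C reads the value for ZNF556 was -1.94 and was not called. Further large falls in all reads were those of ZNF526 (-1.45), ZNF77 (-1.44) and ZNF324 (-1.42). ZNF324, a KRAB gene near the chromosome end, was at 16.7, 25.1 and 21.5 CPM in DMSO and at 10.8, 6.62 and 6.25 CPM in C646 (SE 0.25, adjusted p = 0.00100, edgeR). The all-read call of ZNF77 was lost on leaving out any library but C646 replicate 1, with values from -1.54 to -1.25, and that of ZNF526 without DMSO replicate 2 (-1.23).

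The 8 genes that rose in all reads were ZNF772, ZNF227, ZNF146, ZNF558, ZNF20, ZNF44, ZNF507 and ZNF763. Of the 7 tested in T>C reads all had a log2 fold change above 0 there, but ZNF44 alone was called, and in 6 of the 7 the T>C odds were below 0, as they were for 92.0% of all genes. ZNF146, which consists of zinc fingers alone, rose in all reads from 46.6, 32.3 and 52.2 CPM to 91.6, 105 and 158 CPM, a log2 fold change of 1.44 ± 0.21 (SE, adjusted p = 0.000276, edgeR). Its T>C reads overlapped between the groups, at 15.4, 10.5 and 15.3 CPM in DMSO and 13.6, 18.7 and 21.7 CPM in C646. Its T>C share was 29.4% to 33.0% in DMSO and 13.7% to 17.9% in C646. The gain of ZNF146 was thus counted mostly in reads without a conversion.

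ZNF507, which has no KRAB domain, showed the same arrangement. All reads were at 11.5, 10.3 and 14.5 CPM in DMSO and 25.7, 25.98 and 28.4 CPM in C646 (log2 fold change 1.14 ± 0.19, SE, adjusted p = 0.000744, edgeR). T>C reads of ZNF507 were at 5.80, 5.41 and 8.35 CPM in DMSO and 7.41, 8.09 and 5.56 CPM in C646 and overlapped. ZNF227, a KRAB gene, rose from 6.75, 2.77 and 7.001 CPM to 15.5, 15.3 and 25.3 CPM in all reads (1.75 ± 0.31, SE, adjusted p = 0.00106, edgeR), while its T>C share was 53.8% to 70.0% in DMSO and 21.6% to 36.1% in C646. ZNF772 had the largest rise, 2.04 ± 0.33 (SE, adjusted p = 0.000584, edgeR), on 14 to 18 reads per DMSO library and 52 to 94 per C646 library. ZNF558 rose by 1.27 (SE 0.24, adjusted p = 0.00139, edgeR) and was not tested in T>C reads, of which it had 4 to 16 per library.

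ZNF763 rose by 1.11 and ZNF20 by 1.24 on the log2 scale of all reads. The call of ZNF763 was lost without DMSO replicate 1 (1.03), DMSO replicate 2 (1.01) or C646 replicate 2 (1.02), and that of ZNF20 without DMSO replicate 1 (1.21) or C646 replicate 2 (1.07).

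**Figure D2:**
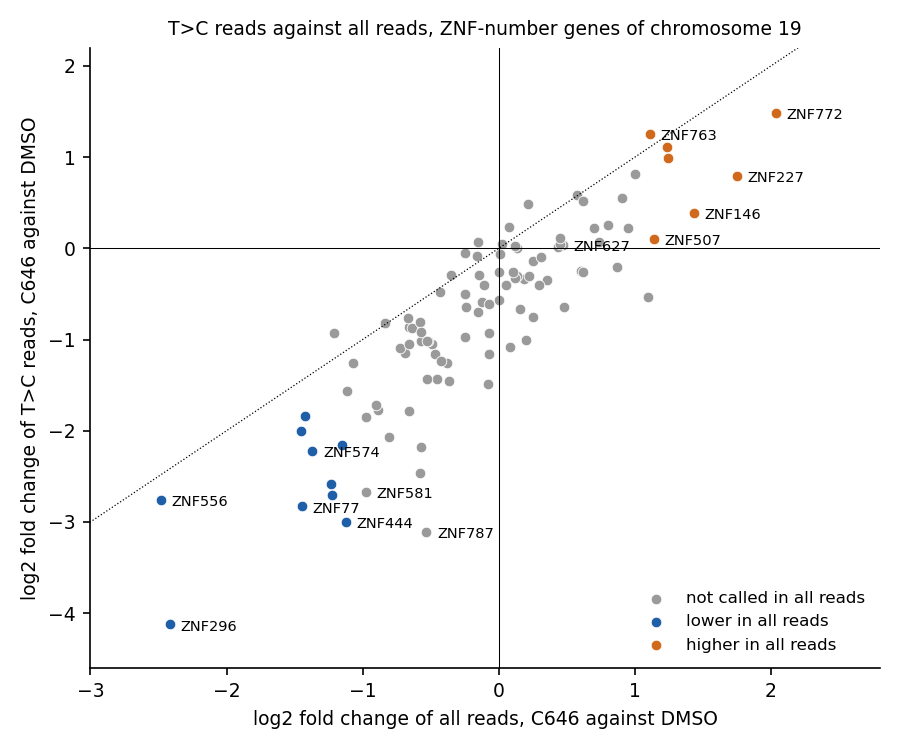
Log2 fold change of T>C reads (vertical) against that of all reads (horizontal), C646 against DMSO, for the 103 chromosome 19 ZNF genes with both tests. Blue and orange points were called lower and higher in all reads, and the dotted line marks equal values; 92 of the 103 points (89.3%) lie below it, against 92.1% of all 7722 genes, ZNF787 and ZNF581 far below, while ZNF763 lies just above.

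T>C odds compare T>C reads with other reads inside each library and need no scaling between libraries. They were lower for 19 of the 103 genes, or 18.4%, and higher for none, against 38.3% lower and 0.790% higher among all 7722 genes. At an unadjusted p under 0.05 the odds of 47 chromosome 19 ZNF genes were lower, or 45.6%, and those of 0 higher (edgeR). Over all genes these shares were 64.8% and 1.88%. The median was -0.95 for these genes and -1.004 for all genes on the log2 scale. Lower odds were found for 11 of the 28 genes called lower in T>C reads and not for the other 17. The other 8 genes with lower odds were not lower in T>C reads, and ZNF146, ZNF227, ZNF507, ZNF627 and ZNF805 were among them. ZNF805 was just short of the fold limit in T>C reads, at -0.97 ± 0.30 (SE, adjusted p = 0.00664, edgeR), and was called lower without DMSO replicate 3 (-1.09) or C646 replicate 3 (-1.34). The number with lower odds was 10 without DMSO replicate 1 or DMSO replicate 2 and 12 without C646 replicate 2. Among the 25 chromosome 19 ZNF genes that averaged 50 or more T>C reads, the odds of 9 were lower. Their median was -0.93, against -0.87 for all genes with that many. Whether read depth sets the gap in calls to all genes was not tested.

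The 234 genes fell into 16 clusters when a new one was begun wherever neighbours lay over 1 Mb apart. Clusters of 20 or more genes numbered 6 and held 201 of the genes, and 5 genes stood alone. Toward the long-arm end, the cluster of 57 genes at chr19:55484374-58481234 had 12 of its 29 tested genes lower in T>C reads and none higher, with a median of -1.05, against 33.0% lower and a median of -0.83 over all genes. Among the 12 were ZNF581, ZNF580, ZNF787, ZNF444, ZNF584 and ZNF324. Its pooled T>C share was 31.7%, 32.5% and 30.5% in DMSO and 22.1%, 20.1% and 23.7% in C646.

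The cluster of 24 genes at chr19:11483427-12629862 contained ZNF627, ZNF763, ZNF20, ZNF44 and ZNF791. Of its 12 genes tested in T>C reads, ZNF791 was lower and ZNF44 higher, and the median was -0.32. In all reads 3 of its 15 tested genes, ZNF763, ZNF20 and ZNF44, were higher and none lower, with a median of 0.36, against 5.89% higher and 1.88% lower over all genes. As given above, the calls of ZNF763 and ZNF20 were each lost on leaving out single libraries. The T>C reads of this cluster summed to 84.0 ± 7.19 CPM in DMSO and 78.4 ± 2.39 CPM in C646 (SD, n = 3 each). Those of the cluster of 57 genes summed to 169 ± 15.3 CPM in DMSO and 90.4 ± 8.32 CPM in C646. The difference between the clusters was not tested.

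Of the remaining large clusters, that of 39 genes at chr19:51588468-53580269 had 1 of 11 tested genes lower in T>C reads (ZNF480), that of 24 genes at chr19:36182060-37738491 had 3 of 11 and that of 24 genes at chr19:43535688-45071600 had 3 of 13. The cluster of 33 genes at chr19:19680301-24107352 had 2 of 5 tested genes lower, ZNF430 and ZNF714. These counts rest on few genes each and stand beside the 33.0% of all genes called lower. In the small cluster of 5 genes near the short-arm end at chr19:2834853-2933488, ZNF556 and ZNF77 were lower among 4 tested genes. ZNF574 and ZNF526, the pair at chr19:42081298-42227053, were both lower in T>C reads and in all reads. ZNF526 was at 5.48, 6.93 and 3.90 T>C CPM in DMSO and at 1.32, 2.21 and 0.595 in C646, a log2 fold change of -2.001 ± 0.45 (SE, adjusted p = 0.000427, edgeR), which was -1.15 and not called with T>C scaling.

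Promoters of the clusters differed in sequence. RefSeq promoter windows (GRCh38.p14, 250 bases before to 50 after a start, the first listed start of a gene) were found for 206 of the 234 genes. The letters CCAATCAG, which extend the CCAAT box, were searched on both strands and occurred in 54 of the 206 windows, or 26.2%, against 4.16% of 27305 windows of the same length and 5.31% of those of protein-coding genes. This word was chosen after the words of the windows had been ranked, so its frequency is a description. It was present in all 27 windows of the cluster of 33 genes and in 20 of 23 windows of the cluster of 24 genes that holds ZNF44, and in 0 of 52 windows of the cluster of 57 genes. In 51 of the 54 windows the first match lay on the gene's own strand, at a median of 67 bases before the start.

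Windows of 30 bases around the word are shown for genes described above, since ZNF20, ZNF627 and ZNF791 lie in one cluster and were respectively higher in all reads, not called in T>C reads and lower in T>C reads. ZNF101 and ZNF430 belong to the cluster of 33 genes, and ZNF77 and ZNF556 to the small cluster near the short-arm end, with the word farther from the start, at -195 and -200 bases. ZNF526 holds the word on the opposite strand. Sequences run 5′ to 3′ on the gene's strand, for ZNF526 on the opposite one, and capitals mark CCAATCAG. The windows are at chr19:12140395-12140424 on the minus strand (ZNF20), chr19:11597378-11597407 on the plus strand (ZNF627), chr19:12610864-12610893 on the plus strand (ZNF791), chr19:19668758-19668787 on the plus strand (ZNF101), chr19:21020560-21020589 on the plus strand (ZNF430), chr19:2945148-2945177 on the minus strand (ZNF77), chr19:2867124-2867153 on the plus strand (ZNF556) and chr19:42220253-42220282 on the minus strand (ZNF526, a gene of the plus strand).
ZNF20: ttgtaccttgtCCAATCAGaagcgccgggg
ZNF627: tgtcaccctatCCAATCAGgggcgctgggg
ZNF791: tgtataattgtCCAATCAGgggcggcgccg
ZNF101: cggcaaactgtCCAATCAGgtgcgccggga
ZNF430: ttaaatgttatCCAATCAGagacgctaggc
ZNF77: gagagaattatCCAATCAGgacaggcaggg
ZNF556: tgaagaactgcCCAATCAGgggagctcagg
ZNF526: acccgtggcgaCCAATCAGagcctgcagcg

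Of the tested genes with a window, 20 held CCAATCAG and 73 did not. T>C reads were lower for 6 of the 20 genes, with a median log2 fold change of -0.86, and for 19 of the 73, with a median of -0.64, so that both counts were near the 33.0% of all genes. Other words were searched on both strands and set against all 27305 windows and against the 14976 of protein-coding genes. CCGGAA, the core of ETS sites, was found in 54.4% of the windows of the chromosome 19 ZNF genes, 17.6% of all windows and 23.6% of those of protein-coding genes. CCAAT, which CCAATCAG contains, was in 51.9%, 35.7% and 36.5%, and TATAAA in 1.94%, 12.0% and 9.08%. For GGGCGG the shares were 69.4%, 44.6% and 60.3%, and for TGACG 33.0%, 25.01% and 30.1%, so that most of the gap to all windows was shared by protein-coding genes. TGACGTCA, the full cyclic AMP response element that contains TGACG, was in 3.40%, 1.98% and 2.69%. Matches of these letters are descriptions of the windows and not of bound sites.

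Calls in T>C reads were also counted by the T content of the 3′ UTR. Among the 103 tested genes, the 34 with the lowest T content (12.3% to 28.3% of bases) included 18 that were lower in T>C reads, with a median of -1.12, against 33.0% of all genes. Of the 35 in between 5 were lower, with a median of -0.48, and of the 34 with the highest T content (31.6% to 38.7%) 5 were lower, with a median of -0.35. In T>C odds the counts of lower genes were 7, 5 and 7 from lowest to highest T content, with medians of -0.97, -0.82 and -0.94, against 38.3% of all genes. Spearman's rho of T content with the T>C log2 fold change was 0.36 across the 103 genes and 0.29 across all 7722, and between T content and T>C odds it was 0.013 and 0.066. These are descriptions across genes of the same 6 libraries, and this split was chosen after the data had been seen. In all reads, 8 of the 34 genes of lowest T content were lower and 2 higher, while 1 was lower and 4 were higher among the 34 of highest T content, against 1.88% lower and 5.89% higher over all genes.

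The tested 3′ UTRs of the chromosome 19 ZNF genes had a median length of 1513 bases and a median T content of 29.9%, beside 1268.5 bases and 30.7% for all tested genes, whereas those of other protein-coding genes of chromosome 19 had medians of 610 bases and 23.5%. The destabilising motif ATTTA was present in the last 200 bases of 42 of 98 3′ UTRs that were long enough, or 42.9%, and in 41.4% of those of all tested genes.

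The partners of KRAB zinc finger proteins gave values in several directions. Of 15 genes for corepressors and heterochromatin proteins, all tested, 2 were lower and 1 higher in T>C reads, with a median of -0.32, against 33.0% and 2.97% of all genes. TRIM28, the corepressor that KRAB domains bind, fell by 1.80 in T>C reads (SE 0.20), while its all reads, at -0.59 on the log2 scale, were not called. CHD4, the ATPase of the NuRD complex, fell by 1.08 in T>C reads (SE 0.35, adjusted p = 0.00952, edgeR), just past both limits of the call. MORC2, which acts with the HUSH silencing complex, rose by 2.23 in T>C reads (SE 0.63, adjusted p = 0.00351, edgeR) and by 1.69 in all reads. It had only 3, 3 and 5 T>C reads in DMSO and 14, 11 and 34 in C646, so the size of this rise rests on few reads. Values of these partner genes under T>C scaling were not read. SETDB1 was at -0.40 ± 0.24 (SE) in T>C reads and was not called. Of 14 other zinc finger genes of the same clusters without a ZNF-number symbol, 13 were listed, 7 of them without a read, and 2 could be tested in T>C reads. ZSCAN22 fell by 1.62 (SE 0.44), and ZSCAN5A was not called, at 0.81 ± 0.38 (SE).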

How the data were processed

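SLAM-seq libraries (QuantSeq 3′ kit) of MOLM-13 cells, 3 with DMSO and 3 with C646, were grouped by the treatment in the labels. The authors used SLAM-Dunk v0.4.1 and the GRCh38 genome. For every library the authors deposited raw counts per 3′ UTR of reads, reads with T>C, single conversions and multimappers. The authors also deposited read coverage on T positions, a signal without normalization, and reads as CPM of all filtered reads, from which library totals were recovered. In C646 replicate 3 the T content column holds 0 in all rows, and it was taken from another table. CASAVA 1.9 is named in the submitters' processing notes. The study tested reads with more conversions in DESeq2, a count that is not in these tables.

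Counts were summed per Entrez identifier and named through RefSeq (25310 of 25420 matched). Of ZNF-number genes of chromosome 19, 1 that is not protein-coding was left out, and 6 protein-coding genes with a letter after the number were not counted. Tests ran over all genes with edgeR 4.0.16 (R 4.3.3), glmQLFit and glmQLFTest after filterByExpr, with treatment as the single term and Benjamini-Hochberg adjustment. T>C reads were scaled by TMM-adjusted totals of all 3′ UTR reads, all reads by TMM, and T>C odds came from a model of both kinds of read with a term for each library and the interaction of read kind and treatment. T>C CPM and CPM use the same TMM-adjusted totals. Calls required an adjusted p of at most 0.01 and a log2 fold change of 1 or more in size. Scripts were tested on simulated data. DESeq2 1.42.0, other scalings, other filters, single 3′ UTRs, a looser threshold, a replicate block and leaving out each library were alternatives.

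Genes were named by rule: the 10 with the most T>C reads in DMSO; the 5 largest falls and rises in T>C reads (at least 20 per library); genes called higher in T>C or all reads; the 5 largest falls in all reads; and the 4 highest and 4 lowest DMSO shares (at least 100 reads). ZNF274, ZNF260, ZNF714 and the genes with copies on alternate contigs were added after their values were seen. Lists covered KRAB corepressors, other zinc finger genes and markers of myeloid leukaemia, T, B, erythroid, epithelial and fibroblast cells. Members and lists were chosen with earlier results of these data known. 3′ UTR windows were read from GRCh38 with Python 3.11.15 and pandas 2.3.3, and promoters are those of RefSeq.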

Additional observations from a re-analysis of the deposited data

How the results depend on the processing

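T>C calls depended most on the scaling. With TMM on T>C reads, 7 chromosome 19 ZNF genes were lower and 11 higher in T>C reads (7.80% and 9.14% of all genes), and their median was 0.20. In DESeq2 with size factors of T>C reads these values were 6, 11 and 0.20 (7.10% and 8.87% of all genes). These scalings also reversed ZNF101 (0.50 and 0.49) and ZNF766 (0.24 and 0.23), neither of which was called. Of 16 named genes with a T>C call, 9 lost it with TMM on T>C reads and 10 in DESeq2 with those size factors, where ZNF574 (-1.34) was the further loss, and 7 other named genes gained a call in both. With totals of all filtered reads, 13 genes were higher in all reads and the median was 0.096, where that of all genes was 0.20. The T>C median was -0.53 without a filter. A mean of at least 50 reads left 25 genes tested, of which 8 were lower in T>C reads and 9 in T>C odds. The T>C median of these 25 genes was -0.40, against -0.73 for all genes with that many reads. An adjusted p of at most 0.05 without a fold limit gave 5 genes higher in T>C reads, 23 lower and 18 higher in all reads, and 45 lower in T>C odds. In conversions per 100 covered T positions, a quantity of another scale, the pooled difference was -1.05. Where no value is given, the cause was not tested. Among these alternatives, shares of all genes called were counted only for the scalings to T>C reads. Counts under the other alternatives, including the looser threshold and leaving out a library, thus cannot be set against all genes.

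Leaving out 1 library gave 19 to 31 genes lower and 0 to 1 higher in T>C reads with a median of -0.70 to -0.52, 6 to 12 lower and 6 to 10 higher in all reads with a median of -0.13 to -0.094, 10 to 21 lower and 0 higher in T>C odds with a median of -1.06 to -0.86, and a pooled share difference of -12.2 to -10.7. ZNF507 ranged from -0.012 (without DMSO replicate 2 or C646 replicate 2) to 0.32 in T>C reads and ZNF627 from -0.0059 (without C646 replicate 3) to 0.11, both not called. Of 700 values of named genes under these alternatives 624 kept their direction and side of the threshold, 45 lost the call, 24 gained it and 7 reversed.

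Replicate numbers are shared between the groups, but same-numbered libraries did not deviate together in every pair. Correlations of their deviations were 0.0299 to 0.0655 in T>C reads and -0.0014 to 0.231 in all reads. With replicate number added as a block the calls were 28 lower and 1 higher in T>C reads, 10 lower and 9 higher in all reads and 16 lower in T>C odds, with 27 of the T>C and 18 of the all-read calls shared with the fit without a block. Of the T>C calls of named genes the block changed that of ZNF805 alone, which was then lower at -1.01. Depth limits single genes, since 131 of the 234 had too few T>C reads for a test.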
